A study of Homo sapiens with 10 samples.

Results

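The genes described here encode tight junction proteins, desmosome proteins, adherens junction catenins and regulators of apicobasal polarity. They were chosen by name, 38 of the 26485 genes listed in the count files, and each was found there. They comprise 8 claudins, 5 other membrane proteins and 4 plaque proteins of the tight junction, 4 desmosomal cadherins, 9 plaque and envelope proteins of the desmosome, 3 catenins and 5 polarity proteins. Polyadenylated RNA had been sequenced from SW480, a human colorectal cancer line, after flow sorting on the surface receptor ROBO1. The populations were ROBO1pos (SW480-CBC in the labels) and ROBO1neg (SW480-RSC), with 5 libraries each. All libraries came from this 1 line, are labelled WT and were grown in the same serum-supplemented medium, with no other agent named. The labels do not say whether replicates were separate cultures. A p-value here therefore reflects only how far these libraries differ, which may be technical variation.

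Epithelial sheets are sealed near their apical surface by tight junctions, in which claudins and MARVEL-domain proteins span the membrane and are tied to actin by scaffold proteins. Desmosomes give mechanical strength: desmogleins and desmocollins bind across the gap between cells, and plakoglobin, plakophilins and desmoplakin connect them to keratin filaments. The Par and Crumbs complexes define the apical side of such a cell, and Scribble and Lgl proteins the basolateral side. In the colonic epithelium these structures hold the barrier against the gut lumen.

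Gene totals ran from 23228686 to 29539100 reads per library, and reads given to no gene made up between 36.2% and 42.5% of the reads listed. ROBO1, the sorting receptor, was at 429.5 ± 26.7 CPM (counts per 1000000 reads, TMM-scaled) in ROBO1pos and 7.25 ± 1.47 CPM in ROBO1neg (SD, n = 5 each, as for every mean given here). Of 10 markers of colorectal epithelium, 7 averaged at least 1 CPM in ROBO1pos and 6 in ROBO1neg, and KRT20 was at 0 in all libraries. Their summed level ran from 5747 to 7009 CPM in ROBO1pos and from 7939 to 10454 CPM in ROBO1neg, but single markers went both ways, with 4 called higher in ROBO1pos and 3 in ROBO1neg. The keratins KRT8, KRT18 and KRT19 averaged 2165, 2343 and 493 CPM in ROBO1pos, against 3755, 4095 and 872 CPM in ROBO1neg. EPCAM and VIL1 averaged 679.9 and 503 CPM in ROBO1pos, against 303 and 27.7 CPM in ROBO1neg. Summed markers of fibroblasts ran from 10.1 to 13.7 CPM in ROBO1pos libraries and from 14.0 to 22.5 CPM in ROBO1neg libraries, with COL3A1 at 0. That sum was mostly COL1A1 in ROBO1neg (4.87 CPM in ROBO1pos, 14.3 CPM in ROBO1neg), while LUM and COL1A2 were higher in ROBO1pos, at 3.73 and 1.97 CPM against 0.0309 and 0.353 CPM. Endothelial markers summed to at most 0.889 CPM in ROBO1pos and 4.25 CPM in ROBO1neg, and leukocyte markers to at most 2.55 and 3.53 CPM. The part of such transcripts in the results below was not tested.

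Junction genes did not move as 1 group between the populations. Of the 35 members with enough counts to be tested, 15 were called as higher in ROBO1pos, 18 as higher in ROBO1neg, and PKP3 and PERP were not called (edgeR quasi-likelihood test, Benjamini-Hochberg adjusted p under 0.05 over all genes tested). Among all 14932 genes tested, 41.6% were higher in ROBO1pos and 40.4% higher in ROBO1neg, 82.0% together, so a call by itself says little about a member. Tested against a difference of 1.5-fold, 9 members were called for ROBO1pos and 10 for ROBO1neg, beside 2938 and 3298 of all 14932 genes. A difference of at least 2-fold was called for 14 of the 35 tested members, 6 higher in ROBO1pos and 8 higher in ROBO1neg, against 30.3% of all genes in either direction. For 30 of the 35 every ROBO1pos library lay on one side of every ROBO1neg library, against 71.9% of all genes. The median log2 fold change (log2FC, ROBO1pos minus ROBO1neg) was -0.19 over these members and 0.019 over all genes, and the median absolute value was 0.76 against 0.58. In sorted populations measured in bulk, fewer cells expressing a gene and less RNA per cell cannot be told apart.

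**Figure D1:**
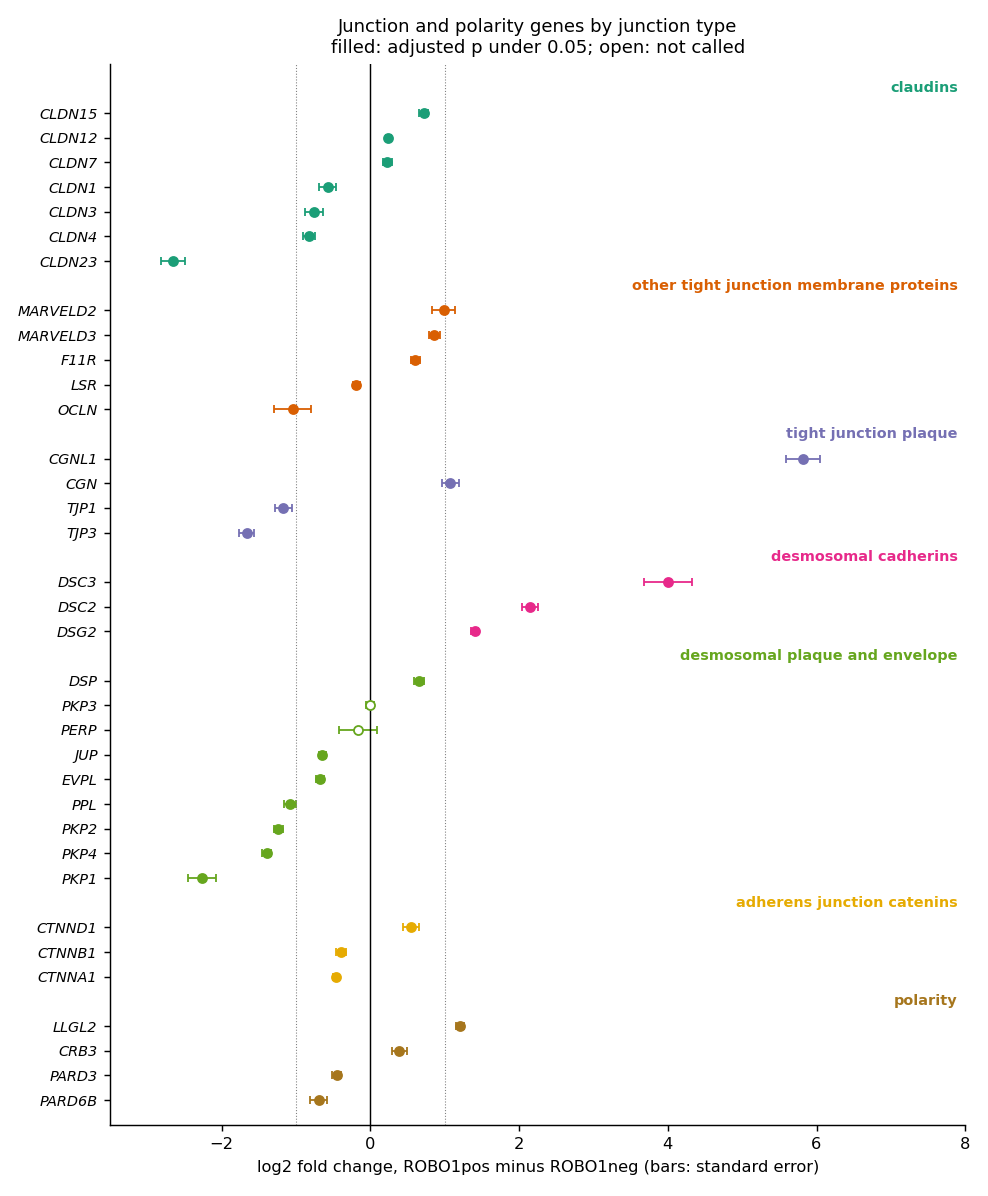
Log2 fold change, ROBO1pos minus ROBO1neg, of the 35 tested members grouped by junction type, with bars for the standard error. Filled points passed an adjusted p under 0.05 and dotted lines mark 2-fold. Desmosomal cadherins lie to the right of 0 and most desmosomal plaque genes to the left, while CGNL1 stands at 5.82.

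Claudins, the strand-forming proteins of the tight junction, divided between the populations. Calls over all genes tested were 40.4% lower in ROBO1pos and 41.6% higher. CLDN23, CLDN4, CLDN3 and CLDN1 were lower in ROBO1pos, and CLDN15, CLDN12 and CLDN7 were higher, out of 7 tested. CLDN23 had the widest difference among them, with 0.774, 1.07, 0.775, 0.889 and 0.863 CPM in ROBO1pos libraries, against 5.90, 7.02, 4.51, 5.15 and 5.16 CPM in ROBO1neg libraries. The groups lay far apart for this gene, whose log2 fold change was -2.65 (SE 0.16, edgeR adjusted p = 1.5e-09). CLDN4, a claudin that tightens the barrier, was at 107, 110.5, 135, 136 and 137 CPM in ROBO1pos and at 243, 210.0, 235, 230.1 and 194 CPM in ROBO1neg. Every ROBO1pos library was below every ROBO1neg library, and the log2 fold change was -0.83 (SE 0.08, edgeR adjusted p = 3.6e-07). CLDN3, which lies beside CLDN4 on chromosome 7, moved by nearly the same amount, averaging 10.2 ± 1.92 CPM in ROBO1pos and 17.3 ± 1.59 CPM in ROBO1neg (log2 fold change -0.76, SE 0.12).

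CLDN1, another barrier-forming claudin, averaged 77.8 ± 5.11 CPM in ROBO1pos and 116 ± 24.0 CPM in ROBO1neg. Its ROBO1neg libraries were spread, from 89.7 to 141 CPM, while those of ROBO1pos ran from 72.9 to 84.9 CPM without reaching them, and its direction turned when the shift of neighbouring genes, also described below, was removed. CLDN15, which forms cation pores in the gut epithelium, was higher in ROBO1pos, at 30.9 ± 2.76 CPM in ROBO1pos and 18.8 ± 0.561 CPM in ROBO1neg (log2 fold change 0.71, SE 0.06). CLDN7 and CLDN12 differed by small factors, at log2FC values of 0.23 (SE 0.06, edgeR adjusted p = 0.0030) and 0.24 (SE 0.03, edgeR adjusted p = 1.6e-05). The libraries of the groups overlapped for CLDN7 and not for CLDN12. With the neighbour shift removed CLDN12 turned to -0.17 (edgeR adjusted p = 5.0e-04) and CLDN7 moved to 0.86. CLDN2, the other cation pore claudin of the list, had 1 count over all ROBO1pos libraries and 11 counts over all ROBO1neg libraries, and was not tested.

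The other membrane proteins of the tight junction also divided. Occludin and tricellulin, encoded by OCLN and MARVELD2, are related 4-pass proteins of bicellular and tricellular contacts, and they moved in opposite directions. OCLN was at 0.348, 0.889, 0.930, 0.929 and 0.863 CPM in ROBO1pos and at 1.95, 1.08, 1.43, 1.84 and 1.84 CPM in ROBO1neg (log2FC -1.04, SE 0.25, edgeR adjusted p = 0.0014). These values rested on 9 to 24 counts per ROBO1pos library and 25 to 54 counts per ROBO1neg library, and the lowest single value, in ROBO1pos replicate 1, stood apart from the other four. MARVELD2 averaged 2.07 ± 0.123 CPM in ROBO1pos and 1.04 ± 0.170 CPM in ROBO1neg (log2 fold change 0.98, SE 0.15). MARVELD3, the remaining MARVEL-domain member, was higher in ROBO1pos as well, at 20.8 ± 1.66 against 11.4 ± 0.818 CPM. F11R, the junctional adhesion molecule JAM-A, averaged 133 ± 6.88 CPM in ROBO1pos and 87.6 ± 7.66 CPM in ROBO1neg. LSR, which recruits tricellulin to tricellular contacts, was slightly lower in ROBO1pos, at a log2FC of -0.19 (SE 0.05) and overlapping libraries.

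All 4 plaque genes of the tight junction differed by more than 2-fold, the zonula occludens scaffolds in one direction and the cingulins in the other. Among all genes, 30.3% were called with at least a 2-fold difference. CGNL1 encodes paracingulin, which links tight and adherens junctions to the cytoskeleton. Its locus spans positions 57376505 to 57550717 of chromosome 15 (GRCh38.p14). CGNL1 was at 77.3, 68.0, 80.5, 87.8 and 48.0 CPM in ROBO1pos libraries. ROBO1neg libraries had 1.61, 0.990, 1.39, 1.84 and 0.541 CPM. The lowest ROBO1pos library was still far above the highest of ROBO1neg, and the log2 fold change of 5.82 (SE 0.23, edgeR adjusted p = 1.8e-11) corresponds to 56.4-fold. In both populations replicate 5 had the lowest value.

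Cingulin, encoded by CGN, was at 18.3, 16.9, 23.01, 27.0 and 20.3 CPM in ROBO1pos, against 9.90, 10.2, 9.81, 9.21 and 10.9 CPM in ROBO1neg. It was higher in every ROBO1pos library by a smaller factor than CGNL1, at a log2FC of 1.08 (SE 0.11, edgeR adjusted p = 7.7e-07). TJP1, the scaffold ZO-1, was at 4.18, 5.71, 5.70, 4.73 and 5.83 CPM in ROBO1pos and at 12.0, 10.6, 11.5, 10.7 and 14.0 CPM in ROBO1neg. TJP3, its paralogue ZO-3, was at 4.88, 3.78, 5.58, 5.05 and 4.48 CPM in ROBO1pos and at 14.6, 14.6, 13.9, 15.2 and 17.1 CPM in ROBO1neg. Neither scaffold had overlapping libraries, and their log2 fold changes were -1.17 (SE 0.11) and -1.67 (SE 0.10), with edgeR adjusted p = 2.7e-07 and 2.0e-09.

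**Figure D2:**
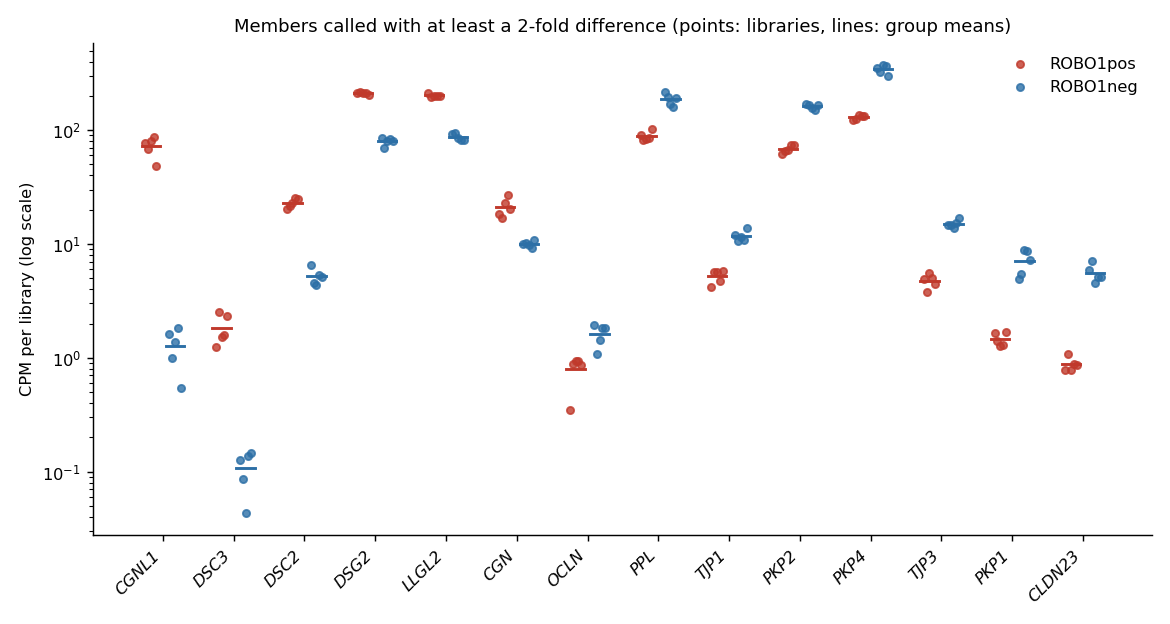
CPM in each library on a log scale for the 14 members called with at least a 2-fold difference, ordered by log2 fold change, with ROBO1pos left of ROBO1neg and lines at group means. The groups do not overlap for any of them, and CGNL1 (72.3 against 1.28 CPM on average) shows the widest gap.

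Desmosomal cadherins were higher in ROBO1pos in all 3 cases that could be tested, where 41.6% of all genes were higher in ROBO1pos. DSG2, the desmoglein of simple epithelia, was at 211, 217, 212, 213 and 205 CPM in ROBO1pos libraries, against 85.3, 70.2, 80.9, 82.9 and 80.7 CPM in ROBO1neg libraries. Its libraries were tightly grouped in both populations, and the log2 fold change was 1.40 (SE 0.05, edgeR adjusted p = 6.7e-12). DSC2, the desmocollin that partners DSG2 in the intestine, was at 20.2, 21.5, 22.9, 25.4 and 24.9 CPM in ROBO1pos, against 6.58, 4.56, 4.34, 5.29 and 5.16 CPM in ROBO1neg (log2FC 2.14, SE 0.11, edgeR adjusted p = 2.3e-10). DSC3, a desmocollin of stratified epithelia, was at 1.238, 2.52, 1.51, 1.58 and 2.34 CPM in ROBO1pos and at 0.127, 0.0861, 0.0434, 0.136 and 0.144 CPM in ROBO1neg. That difference, a log2 fold change of 4.00 (SE 0.33, edgeR adjusted p = 4.3e-08), rested on 235 counts summed over ROBO1pos and 14 counts summed over ROBO1neg. DSG3, a desmoglein of stratified epithelia, had 2 counts over the ROBO1pos libraries and 0 over the ROBO1neg libraries, where a count of 0 allows up to 0.0237 CPM by counting error alone (3 counts over the group), so no fold is given.

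These cadherin genes form a cluster on chromosome 18, in the order DSC3 (from 30989365), DSC2 (from 31058840), DSG3 (from 31447741) and DSG2 (from 31498177 to 31549008, GRCh38.p14). DSG1, DSG4 and DSC1, desmosomal cadherins of the same chromosome outside the members, had too few counts to be tested. DSG1 had 33 counts summed over ROBO1pos and 28 over ROBO1neg, DSG4 had 20 and 14, and DSC1 had 0 in both. DSC3 and DSC2 are on the minus strand, and DSG3 and DSG2 on the plus strand. The 250 bases before the start of DSC3, DSC2 and DSG2 are shown because these genes moved together, with those of DSP, the desmosomal plaque gene that moved the same way. Each is read 5′ to 3′ on the gene's strand from RefSeq sequence of GRCh38.p14, and capitals mark CAGGTG or its reverse complement CACCTG, the E-box form bound by Snail and ZEB repressors. The windows are chr18:31042743-31042992 for DSC3, chr18:31102422-31102671 for DSC2, chr18:31497927-31498176 for DSG2 and chr6:7541421-7541670 for DSP.
DSC3: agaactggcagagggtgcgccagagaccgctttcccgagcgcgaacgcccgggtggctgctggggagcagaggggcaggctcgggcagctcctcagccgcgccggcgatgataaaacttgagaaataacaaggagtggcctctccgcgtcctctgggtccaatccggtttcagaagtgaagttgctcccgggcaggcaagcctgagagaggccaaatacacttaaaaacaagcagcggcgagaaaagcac
DSC2: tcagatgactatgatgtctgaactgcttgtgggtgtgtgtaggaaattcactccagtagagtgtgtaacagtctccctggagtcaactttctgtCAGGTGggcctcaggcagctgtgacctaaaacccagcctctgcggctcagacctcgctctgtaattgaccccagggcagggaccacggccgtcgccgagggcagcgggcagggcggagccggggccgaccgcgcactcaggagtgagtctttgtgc
DSG2: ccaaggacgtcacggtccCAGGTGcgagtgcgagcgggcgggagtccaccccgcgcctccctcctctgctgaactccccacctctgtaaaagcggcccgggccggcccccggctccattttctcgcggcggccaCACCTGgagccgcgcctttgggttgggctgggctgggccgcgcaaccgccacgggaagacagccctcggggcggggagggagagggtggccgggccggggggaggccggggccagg
DSP: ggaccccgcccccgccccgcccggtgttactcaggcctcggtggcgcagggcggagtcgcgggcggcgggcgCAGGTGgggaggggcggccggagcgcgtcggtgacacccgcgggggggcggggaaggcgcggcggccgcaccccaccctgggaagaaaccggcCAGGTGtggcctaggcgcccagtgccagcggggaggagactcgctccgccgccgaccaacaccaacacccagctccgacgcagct

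The DSG2 and DSP windows each held 2 matches of this E-box, the DSC2 window 1 and the DSC3 window 0. Windows at the outermost gene start were matched for 23 of the 38 members, and 5 of these held the E-box on either strand (DSC2, DSG2, DSP, OCLN and TJP1), against 17.4% of 24885 promoters of the same length. Of those 5 genes, 3 were higher in ROBO1pos and 2 higher in ROBO1neg. The letters AACCNGTT, a Grainyhead-like motif, were in 0 of the 23 windows and in 1.49% of all promoters. GGAATG, a TEAD motif, was in 0 of the 23 and in 12.0% of all promoters. Matches were sought on both strands, none overlapped a match of another motif, and the motifs were chosen with the results known. A match is a description of the letters and not a bound site. The window of CGNL1, the member with the widest difference, is chr15:57376255-57376504 on the plus strand, held none of the 3 motifs and was 80.4% G or C.
CGNL1: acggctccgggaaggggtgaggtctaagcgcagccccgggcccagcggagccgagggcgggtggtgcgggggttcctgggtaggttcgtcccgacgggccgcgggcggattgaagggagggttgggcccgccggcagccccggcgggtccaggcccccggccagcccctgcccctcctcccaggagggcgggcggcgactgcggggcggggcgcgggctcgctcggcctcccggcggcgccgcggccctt

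The plaque of the desmosome went largely the other way from its cadherins. Among all genes tested, 40.4% were called lower in ROBO1pos and 41.6% higher. Of 9 plaque and envelope genes, 6 were lower in ROBO1pos, 1 was higher and 2 did not pass. Desmoplakin, encoded by DSP, which anchors keratin filaments, was the one that was higher, at 722, 637, 728, 699 and 582 CPM in ROBO1pos, against 440.1, 374, 444, 431 and 446 CPM in ROBO1neg (log2FC 0.66, SE 0.07, edgeR adjusted p = 4.9e-07). Plakoglobin (JUP), which binds cadherin tails in desmosomes and adherens junctions, averaged 159 ± 6.85 CPM in ROBO1pos and 249.5 ± 13.8 CPM in ROBO1neg (log2FC -0.65, SE 0.05, edgeR adjusted p = 1.1e-08), a call lost when the shift of neighbouring genes, described below, was removed.

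Plakophilins are armadillo proteins that cluster desmosomal components, and 3 of the 4 were lower in ROBO1pos by over 2-fold. A difference of at least 2-fold, in either direction, was called for 30.3% of all genes. PKP1, the isoform of stratified epithelia, was at 1.66, 1.41, 1.28, 1.29 and 1.68 CPM in ROBO1pos, against 4.93, 5.43, 8.90, 8.70 and 7.25 CPM in ROBO1neg (log2FC -2.26, SE 0.19, edgeR adjusted p = 5.3e-08). PKP2, the isoform of simple epithelia and heart, was at 61.9, 66.1, 67.3, 73.8 and 74.2 CPM in ROBO1pos, against 169, 168, 157, 149.8 and 165 CPM in ROBO1neg (log2FC -1.24, SE 0.06, edgeR adjusted p = 7.6e-11). PKP4, a relative found at adherens junctions and desmosomes, was at 124, 127, 135, 134 and 133 CPM in ROBO1pos, against 349, 322, 374, 367 and 301 CPM in ROBO1neg (log2FC -1.39, SE 0.06, edgeR adjusted p = 3.9e-11). The groups were well separated for these 3 genes. PKP3, by contrast, averaged 86.8 ± 5.70 CPM in ROBO1pos and 87.1 ± 4.02 CPM in ROBO1neg, with overlapping libraries and a log2 fold change of -0.01 (SE 0.05, edgeR adjusted p = 0.92).

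Periplakin and envoplakin, plakin linkers of the desmosome and the cornified envelope, were both lower in ROBO1pos. PPL was at 90.2, 81.5, 83.9, 85.1 and 102 CPM in ROBO1pos, against 218, 196, 170.4, 161 and 190.5 CPM in ROBO1neg (log2FC -1.08, SE 0.08, edgeR adjusted p = 2.0e-08). EVPL averaged 38.9 ± 2.02 CPM in ROBO1pos and 62.2 ± 3.56 CPM in ROBO1neg (log2 fold change -0.68, SE 0.05). Its neighbour median was -0.50, and with that removed EVPL was at -0.18 (edgeR adjusted p = 0.0046). PERP, a tetraspan protein of desmosomes and a target of p53 family factors, did not pass, with 256 ± 18.8 CPM in ROBO1pos and 288 ± 145 CPM in ROBO1neg (edgeR adjusted p = 0.55). Its ROBO1neg libraries were at 173, 158, 421, 467 and 221 CPM, so that some lay below and some above all ROBO1pos libraries.

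Adherens junction catenins differed by less than 1.5-fold. CTNNB1, which encodes beta-catenin, the armadillo protein shared by cadherin adhesion and Wnt signalling, averaged 1697 ± 90.2 CPM in ROBO1pos and 2233 ± 228 CPM in ROBO1neg (log2 fold change -0.40, SE 0.07), a call also lost with the neighbour shift removed. CTNNA1, the alpha-catenin that ties it to actin, averaged 837 ± 26.5 and 1157 ± 31.4 CPM in ROBO1pos and ROBO1neg (log2 fold change -0.47, SE 0.04). CTNND1, which stabilises cadherins at the membrane, was higher in ROBO1pos at 9.05 ± 0.826 against 6.19 ± 0.886 CPM (log2 fold change 0.55, SE 0.11). CTNND1 shares its span with the read-through gene TMX2-CTNND1, which the files list as well, so reads of the pair could be divided or set aside and its level is uncertain. CDH1, the E-cadherin to which these catenins bind, averaged 34.2 ± 2.41 CPM in ROBO1pos and 44.4 ± 9.49 CPM in ROBO1neg, and its libraries overlapped (log2 fold change -0.38, SE 0.12, edgeR adjusted p = 0.0082).

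Among the 4 polarity members tested, LLGL2 had the widest difference. LLGL2, a basolateral Lgl protein, was at 213, 197, 200.4, 201 and 198 CPM in ROBO1pos, against 93.4, 94.1, 85.7, 81.7 and 82.8 CPM in ROBO1neg. The groups were tight and separate, at a log2FC of 1.21 (SE 0.05, edgeR adjusted p = 2.3e-11). PARD3 and PARD6B, scaffolds of the apical Par complex, were both lower in ROBO1pos, at 35.9 ± 3.41 against 49.1 ± 1.57 CPM for PARD3 and at 25.9 ± 4.48 against 42.0 ± 5.80 CPM for PARD6B. CRB3, the Crumbs protein of most epithelia, was higher in ROBO1pos at 16.8 ± 2.20 against 12.8 ± 1.61 CPM, with overlapping libraries (log2 fold change 0.39, SE 0.10, edgeR adjusted p = 0.0034). SCRIB, the basolateral scaffold Scribble, had 3 counts summed over ROBO1pos and 2 summed over ROBO1neg and was not tested. Reads aligned to several places, which were assigned to no gene, made up 24.1% to 26.2% of the reads listed in ROBO1pos libraries and 20.5% to 21.5% in ROBO1neg libraries, and their part in low counts such as those of SCRIB, OCLN and TJP1 was not tested.

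Levels can be set beside each other only per length, and were divided by the exon length of each gene in GENCODE 29. On this scale CTNNB1 was the highest member in both populations, at 142 CPM per kilobase in ROBO1pos and 187 CPM per kilobase in ROBO1neg. CLDN7 was the highest of the 7 claudin members tested, at 72.1 CPM per kilobase in ROBO1pos and 61.6 in ROBO1neg. The order of the tight junction plaque genes differed between the populations. In ROBO1pos it was CGNL1 (8.35 CPM per kilobase), CGN (3.19), TJP3 (1.13) and TJP1 (0.464), whereas in ROBO1neg it was TJP3 (3.57), CGN (1.51), TJP1 (1.04) and CGNL1 (0.147). DSG2 was the highest desmosomal cadherin in both, at 34.2 CPM per kilobase in ROBO1pos and 12.9 in ROBO1neg, and DSC2 came next at 1.84 and 0.415. These lengths are approximate, since no source used here names the annotation behind the counts.

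**Figure D3:**
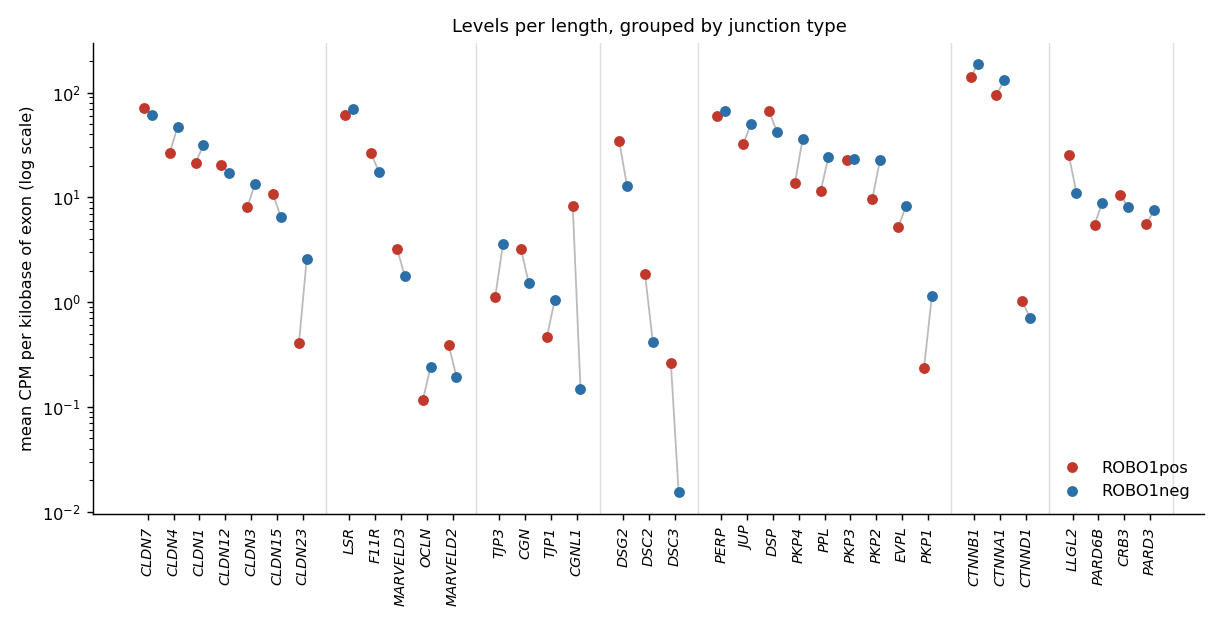
Mean CPM per kilobase of exon on a log scale for the 35 tested members, grouped by junction type and joined between ROBO1pos (left) and ROBO1neg (right). CTNNB1 and CTNNA1 are the highest in both populations, and CGNL1 moves from the top of the plaque group in ROBO1pos to its foot in ROBO1neg.

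The balance between related genes was measured as the log2 ratio of 2 genes within each library, which the scaling of libraries leaves almost untouched. Of 11 pairs with both genes tested, 9 differed between ROBO1pos and ROBO1neg (exact two-sided permutation test, Benjamini-Hochberg adjusted p under 0.05 over the 11 pairs). The share among pairs of other genes was not measured. Since 82.0% of all genes were called singly, the count of pairs by itself says little about junction genes. With 5 against 5 libraries the test has 252 assignments, and 0.00794 is the smallest p it can give. With libraries paired by replicate number, an exact sign-flip test gave each of the 9 an adjusted p of 0.0764. Its 5 pairs of libraries cannot bring that below the threshold. The log2 ratio of CGN to CGNL1 was -2.07, -2.00, -1.80, -1.70 and -1.24 in ROBO1pos libraries and 2.56, 3.27, 2.75, 2.27 and 4.15 in ROBO1neg libraries, a difference of means of -4.76 (exact permutation p = 0.00794, adjusted p = 0.0109). In ROBO1pos CGNL1 therefore had more counts than CGN in each library, and in ROBO1neg fewer. The log2 ratio of OCLN to MARVELD2 was -2.29, -1.23, -1.16, -1.11 and -1.06 in ROBO1pos and 0.63, 0.37, 0.49, 0.59 and 0.87 in ROBO1neg. That of PKP2 to PKP3 was -0.40, -0.33, -0.37, -0.22 and -0.38 in ROBO1pos and 0.89, 0.94, 0.96, 0.77 and 0.91 in ROBO1neg. Both ratios of counts thus had opposite signs in the populations. Their differences were -1.96 and -1.23 (exact permutation p = 0.00794 for both, adjusted p = 0.0109). The sign of such a ratio depends on gene length, whereas the difference does not. Per kilobase, OCLN was below MARVELD2 in ROBO1pos (0.117 against 0.386 CPM) and above it in ROBO1neg (0.241 against 0.194 CPM). On that scale PKP2 was below PKP3 in ROBO1pos (9.75 against 22.92) and nearly level with it in ROBO1neg (22.989 against 22.997).

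Within the desmosomal cadherins, the ratio of DSC2 to DSC3 differed by -1.21 on the log2 scale and that of DSG2 to DSC2 by -0.74, so the 3 members did not differ by the same factor. The DSC2 to DSC3 difference depends on the prior count added to the low DSC3 values, and was -1.74 with a prior of 0.5 in place of 2. CLDN1 to CLDN7 differed by -0.78, PPL to EVPL by -0.40 and TJP1 to TJP3 by 0.50, each with an exact permutation p of 0.00794 and an adjusted p of 0.0109. JUP to CTNNB1, the related armadillo proteins, differed by -0.26 (exact permutation p = 0.0238, adjusted p = 0.0291) with overlapping libraries, and this call was lost without ROBO1neg replicate 3, 4 or 5 (adjusted p = 0.0582 for each). CLDN3 to CLDN4 did not pass, with means of -3.62 ± 0.16 in ROBO1pos and -3.68 ± 0.13 in ROBO1neg (exact permutation p = 0.548, adjusted p = 0.548). PARD3 to PARD6B did not pass either, at 0.48 ± 0.34 and 0.23 ± 0.17 in ROBO1pos and ROBO1neg (exact permutation p = 0.190, adjusted p = 0.210), although it did without ROBO1pos replicate 5 (adjusted p = 0.0262 in the exact test). The ratios were not corrected for the shift of neighbouring genes, described below. In the fit of single genes with that shift removed, TJP1 was at -1.53 and TJP3 at -0.82. JUP was at 0.02 and CTNNB1 at -0.10 in that fit. The order within both pairs thus turned, while the genes of the other pairs kept theirs.

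**Figure D4:**
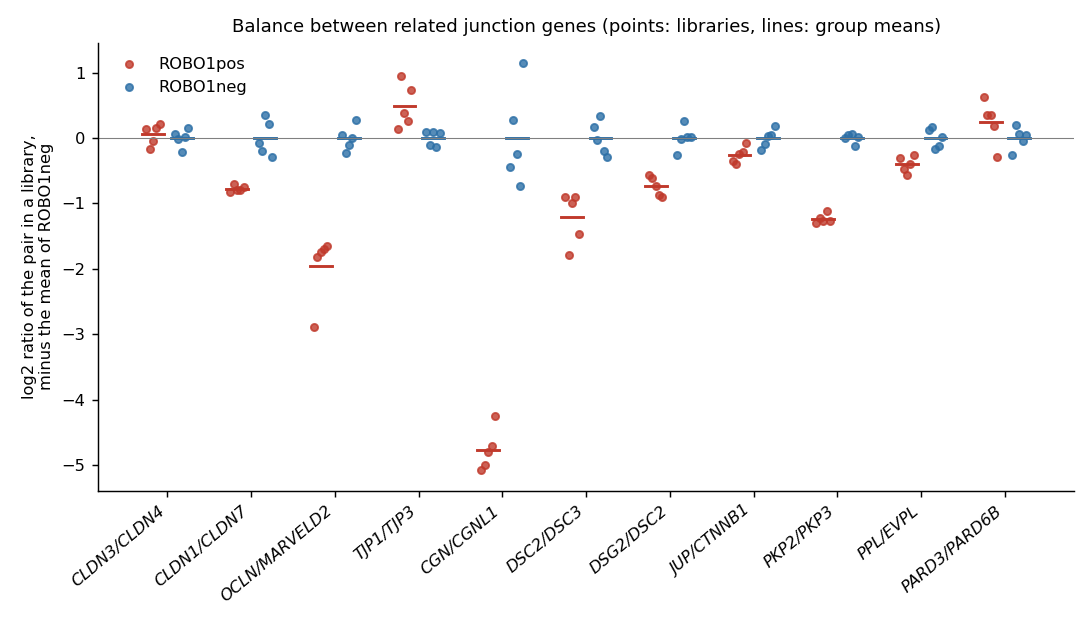
Log2 ratio of the named genes in each library, minus the ROBO1neg mean, for the 11 pairs tested, with ROBO1pos left of ROBO1neg and lines at group means. CGN/CGNL1 differs by -4.76 between the populations, whereas CLDN3/CLDN4 has overlapping libraries.

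Each member was also set against the genes near it on its chromosome. The 20 tested genes nearest on each side had an absolute median log2 fold change with a median of 0.20 over the 35 members. Across members, the log2 fold change and the neighbour median had a Pearson r of 0.27 (n = 35 genes, which share libraries and in part neighbours, a description with no test). After removal of the neighbour median, 16 members were higher in ROBO1pos and 16 higher in ROBO1neg at an adjusted p under 0.05 in edgeR, against 80.7% of all genes called in that fit. Around the desmosomal cadherin cluster, 40 other tested genes between positions 21650901 and 36180557 of chromosome 18 had log2 fold changes with a median of 0.69, and 32 of them were above 0. Over the 203 tested genes of chromosome 18 the median was 0.75. With the neighbour median removed, the log2 fold changes were 3.30 for DSC3, 1.42 for DSC2 and 0.58 for DSG2, with edgeR adjusted p = 5.8e-07, 2.3e-08 and 7.9e-08.

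JUP, on chromosome 17, was at 0.02 (edgeR adjusted p = 0.70) once its neighbour median of -0.67 was removed, and CTNNB1 at -0.10 (edgeR adjusted p = 0.19). CLDN1 lies on chromosome 3 among genes with a median of -0.85 and was at 0.27 in that fit (edgeR adjusted p = 0.042), the opposite direction from before. CLDN12 reversed too, to -0.17, and PKP3 came to 0.40 (edgeR adjusted p = 4.9e-06). Members that stood against their surroundings moved further. CLDN23 was at -3.26 and LLGL2 at 1.75 after removal of neighbour medians of 0.61 and -0.55. CGNL1 was little affected, at 5.62 after removal of 0.20. What accounts for the values of the neighbours was not tested.

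**Figure D5:**
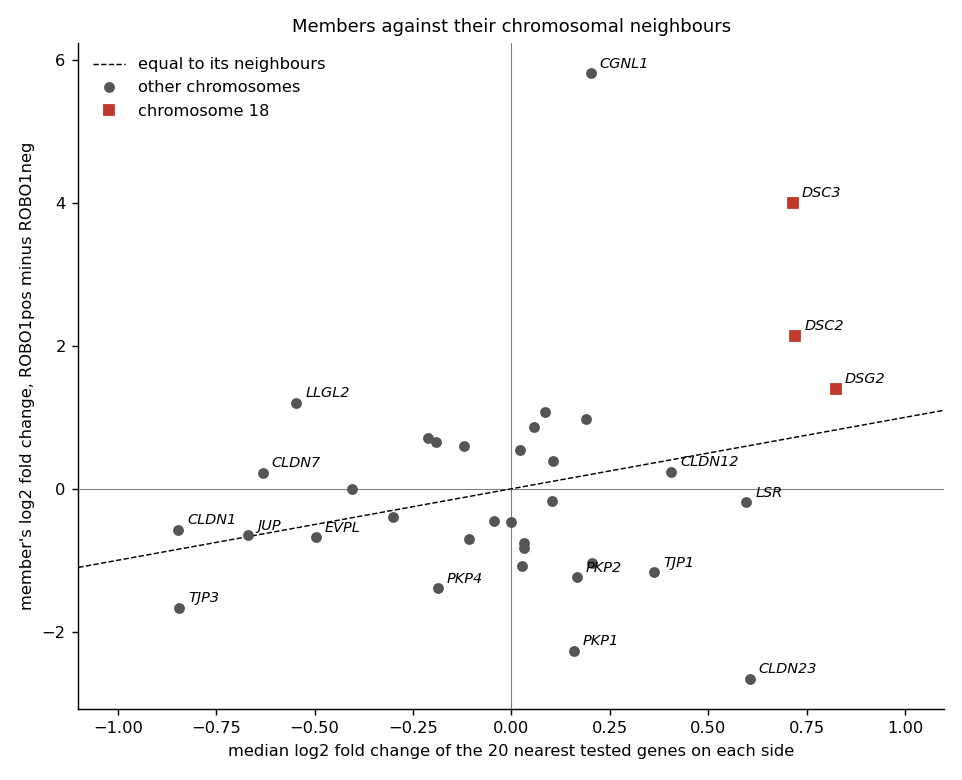
Log2 fold change of each of the 35 tested members against the median over the 20 tested genes nearest on each side, with a dashed line where both are equal. JUP and CLDN1 lie near the line, the 3 cadherins of chromosome 18 lie above it at neighbour medians of 0.72 to 0.82, and CGNL1 lies far above it.

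Other genes of the same structures were also called in both directions. Of 86 further junction and polarity genes 63 were tested, and the calls were 23 for ROBO1pos and 31 for ROBO1neg, with 9 not called, where 82.0% of all genes were called. Their median log2 fold change was -0.15, and 2-fold calls numbered 11 for ROBO1pos and 19 for ROBO1neg, beside 30.3% of all genes in either direction. Among 18 tested genes of the tight junction, 5 were higher in ROBO1pos and 11 higher in ROBO1neg. AMOTL1 and AMOTL2, angiomotin-like proteins that bind tight junction and Hippo pathway proteins, averaged 0.0853 ± 0.0303 and 17.7 ± 4.04 CPM in ROBO1pos, against 12.9 ± 3.28 and 326 ± 16.3 CPM in ROBO1neg. AMOTL1 had 11 counts over all ROBO1pos libraries. AMOT, their relative, was higher in ROBO1pos at 129.9 ± 19.3 against 63.5 ± 4.40 CPM. YBX3, a Y-box protein that binds ZO-1, and SYMPK, a polyadenylation factor also found at junctions, were higher in ROBO1pos, at log2FC values of 1.09 (SE 0.06) and 0.59 (SE 0.04).

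Adherens junction genes outside the members split evenly, with 7 of 16 tested higher in each population, beside 41.6% and 40.4% of all genes. The nectins differed in direction: NECTIN1, listed as PVRL1, averaged 223 ± 14.3 CPM in ROBO1pos and 91.0 ± 6.11 CPM in ROBO1neg, while NECTIN2, listed as PVRL2, averaged 22.5 ± 2.69 and 116 ± 3.39 CPM. CAMSAP3, which anchors microtubule minus ends at epithelial junctions, and CDH17, the intestinal LI-cadherin, were higher in ROBO1pos, at log2FC values of 1.65 (SE 0.05) and 5.72 (SE 0.49). CDH17 averaged 6.94 ± 3.38 CPM in ROBO1pos and 0.127 ± 0.0813 CPM in ROBO1neg, where it had 16 counts over all libraries. LIMA1, which binds actin at adhesions, was lower in ROBO1pos, at 30.1 ± 2.65 against 123 ± 10.1 CPM (log2 fold change -2.04, SE 0.07, and -1.42 with the neighbour shift removed). Of 2 further desmosome genes tested, KAZN was higher in ROBO1pos (log2 fold change 0.33, SE 0.09) and TMEM47 was lower (-1.15, SE 0.07). With the neighbour shift removed KAZN was at -0.082 and not called (edgeR adjusted p = 0.41).

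Of 27 further polarity genes tested, 10 were higher in ROBO1pos and 12 higher in ROBO1neg, beside 41.6% and 40.4% of all genes. The atypical protein kinase C PRKCZ, which acts in the Par complex, averaged 76.6 ± 5.18 CPM in ROBO1pos and 34.8 ± 1.41 CPM in ROBO1neg. MARK1 and MARK4, Par-1 kinases, were higher in ROBO1pos, at log2FC values of 2.30 (SE 0.12) and 0.56 (SE 0.05). DLG1, a basolateral scaffold of the Scribble group, averaged 81.5 ± 4.49 CPM in ROBO1pos and 388 ± 39.1 CPM in ROBO1neg, and MPP7, which binds DLG1, averaged 8.81 ± 0.568 and 49.9 ± 3.65 CPM. STK11, the polarity kinase LKB1, was lower in ROBO1pos at 15.4 ± 1.35 against 41.7 ± 2.72 CPM. DLG1, STK11, PRKCZ and MARK1 had neighbour medians of -0.87, -0.88, 0.90 and 0.77, and were at -1.38, -0.56, 0.24 and 1.54 after their removal.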

How the data were processed

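Polyadenylated RNA of 10 libraries, 5 ROBO1pos and 5 ROBO1neg, was analysed. The authors deposited 1 table of whole-number counts by gene for each library, without scaling. STAR 2.6.0c, SAMtools 1.9, DESeq2 1.24.0 and GRCh38 are named in the submitters' processing notes. No source used here gives the counting tool, strand setting or annotation. Entries naming no gene (36.2% to 42.5% of reads) were left out. Of the 38 members, 10 overlap another listed gene, so their reads may not be fully separated.

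Counts were fitted with edgeR 4.0.16 in R 4.3.3 (filterByExpr, TMM, quasi-likelihood, group as the only term), and genes were called at a Benjamini-Hochberg adjusted p under 0.05 over all 14932 tested genes. The fit was checked on simulated data with planted changes, of which it missed some of the smaller ones. Standard errors came from the coefficient and its F statistic. A gene at 1 CPM rested on 23.0 to 29.3 counts per library, and intervals and floors cover counting error only. Ratios used log2 CPM with a prior count of 2. Positions came from a RefSeq table for GRCh38.p14 (the authors' patch release is unknown), and neighbour medians entered the fit as offsets.

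Members and lists were chosen with earlier results of these data known. Every library is printed for members called at 2-fold or more. The rule also asked for library values of the ratios described, which are printed for 3 of them, with differences or means for the rest. Of each further list, up to 3 called genes per direction by smallest adjusted p at 5 CPM or more are named, with CDH1 and ROBO1, and some that the rule picks are not reported here. CLDN4 and DSP were shown per library after their values were seen. No libraries were duplicates (chi-square per degree of freedom 3.55 to 22.0 within groups). Replicates 3 and 4 were the closest in both groups, at 4.30 in ROBO1pos and 3.55 in ROBO1neg, and what they share was not tested. Alternatives were RLE, upper quartile and unscaled library sizes, 2 other filters, DESeq2 1.42.0, limma-voom (limma 3.58.1), a test against 1.5-fold, a replicate block, neighbour removal and each library left out. Counts of calls under neighbour removal were added after the data were seen.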

Additional observations from a re-analysis of the deposited data

Results flagged for a closer look

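Among 92 groups of 5 values (35 tested members and 11 ratios in each population), 7 had a highest or lowest library far from the rest by Dixon's test, where chance flags about 1 group in 20. OCLN was at 0.348 CPM in ROBO1pos replicate 1, with the others between 0.863 and 0.930 CPM, and the log2 ratio of OCLN to MARVELD2 was accordingly -2.29 there, with the others between -1.23 and -1.06. LLGL2 was at 213 CPM in the same library, above others of at most 201 CPM. JUP was at 171 CPM in ROBO1pos replicate 5, with the others between 154 and 158 CPM. In ROBO1neg, replicate 2 was low for DSP (374 CPM, others from 431 CPM) and high for CTNND1 (7.71 CPM, others up to 6.04 CPM). MARVELD3 was at 12.8 CPM in ROBO1neg replicate 1, with the others between 10.8 and 11.4 CPM.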

How the results depend on the processing

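With RLE, upper quartile or unscaled library sizes, limma-voom or the replicate block, 15 members were higher in ROBO1pos and 18 higher in ROBO1neg, as in each of the 10 fits without 1 library. No filter beyond 1 count and DESeq2 each gave 15 and 19, and a filter of 5 CPM in 5 libraries, which tests fewer genes, 13 and 15. Neighbour removal gave 16 and 16. The test against 1.5-fold gave 9 and 10 members, and 2938 and 3298 of all genes. Without 1 library, all genes called ranged from 6087 to 6245 higher in ROBO1pos and from 5976 to 6148 higher in ROBO1neg. Removal of the neighbour median turned the direction of CLDN1 (0.27), CLDN12 (-0.17), PKP3 (0.40), JUP (0.020) and KAZN (-0.082), and ended the call of CTNNB1 (-0.096). It moved CLDN23 (-3.26), CLDN7 (0.86), LSR (-0.79), TJP3 (-0.82), DSG2 (0.58), DSC2 (1.42) and DSC3 (3.30) by over 1.5-fold, and the cause of the neighbours' shift was not tested. Leaving out 1 library moved JUP/CTNNB1 between -0.30 and -0.21 and PARD3/PARD6B between 0.15 and 0.38, called without ROBO1pos replicate 5 (adjusted p = 0.0262). Same-numbered libraries correlated at 0.062 to 0.17 after group means were removed, below 0.1 for some, and the numbers were not taken as pairs. Each ROBO1pos library nevertheless correlated best with its own number, and what same-numbered libraries share was not tested. With the replicate block, tested by exact sign-flip permutation, the mean differences of the ratios are the same by construction, at -0.78 (CLDN1/CLDN7), -1.96 (OCLN/MARVELD2), 0.50 (TJP1/TJP3), -4.76 (CGN/CGNL1), -1.21 (DSC2/DSC3), -0.74 (DSG2/DSC2), -0.26 (JUP/CTNNB1), -1.23 (PKP2/PKP3) and -0.40 (PPL/EVPL), with an adjusted p of 0.0764, which 5 pairs cannot bring below the threshold. Counts limit OCLN, DSC3, CLDN2, DSG3 and SCRIB.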

Other observations

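PERP was spread within ROBO1neg. Its replicates 3 and 4 had 421 and 467 CPM, against 158 to 221 CPM in the other ROBO1neg libraries. The same replicates were also the highest of their group for CLDN1 (141 and 135 CPM) and for PKP1 (8.90 and 8.70 CPM), but not for CLDN4 or DSG2. These genes were chosen after their values were seen, and the relation was not tested.

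DLG5 and MPDZ, polarity and tight junction scaffolds of the further lists, were at or near 0 in both populations, like SCRIB, with at most 0.0239 CPM on average. The part of the read counting in these values was not tested.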
